A study of Spodoptera frugiperda with 6 samples.

Results

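The miRNAs bantam, miR-8 and miR-31 were examined in small RNA libraries of whole larvae of the fall armyworm, Spodoptera frugiperda. They were chosen by name and with their abundance in these libraries known: every entry named bmo-bantam-5p, bmo-miR-8-5p or bmo-miR-31-5p was taken, with the unnamed entry Spodoptera_mature_01, which carries the bantam sequence. This gave 5 of the 172 entries of the deposited table and 3 of its 128 distinct mature sequences. The libraries came from an insecticide-resistant strain (3 libraries), which tolerates the diamide chlorantraniliprole, and from a susceptible laboratory colony (3 libraries). Each library was made from a pool of 100 larvae aged 3 to 5 days, and both strains were reared on artificial diet. No treatment of the sequenced larvae is given in the sources used here, and the strain of each library was taken from its label, so resistant and susceptible libraries are below the libraries labelled so. The direction between the strains is in doubt. Read by the labels, each miRNA that the study lists as differing changed by a similar amount but in the opposite direction. Exchanged labels and a contrast taken the other way round in the study cannot be told apart here. Every direction between the strains given below therefore holds for the labels and would turn round if the strains were exchanged. Each condition was 1 strain of its own origin, so resistance and strain background cannot be told apart.

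A miRNA is a small RNA that guides a repressor complex to messenger RNAs, mainly through its seed, bases 2 to 8 from the 5′ end. It is cut from a hairpin precursor, and either arm of the hairpin can supply the mature strand. In Drosophila, bantam promotes tissue growth and represses the cell death gene hid, and miR-8 acts in the fat body to promote insulin signalling and body growth. miR-31 is shared by insects and mammals, and its part in epithelial growth is known from mammals. In Drosophila the prevalent products of the bantam and miR-8 hairpins come from the 3′ arm. Roles in S. frugiperda were not measured here.

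The 3 mature sequences are printed because every count below belongs to 1 of them. The seed is in capitals.
bmo-bantam-5p: uGAGAUCAuugugaaagcugau
bmo-miR-8-5p: uAAUACUGucagguaaagauguc
bmo-miR-31-5p: aGGCAAGAagucggcauagcugu
bantam is 22 nt long, and miR-8 and miR-31 are 23 nt long. The 3 seeds differ from one another, and none of the other 125 sequences of the table carried any of them. No other sequence lay within 3 edits of a member (insertions, deletions or substitutions). The nearest was Spodoptera_mature_53, at 8 edits from bantam and 10 from miR-8, and bmo-miR-34-5p was the nearest to miR-31, at 10 edits. bantam and miR-8 differed by 11 edits, and miR-31 differed from each of them by 12. Among all 128 sequences, 56 began with U, as bantam and miR-8 do, and 31 with A, as miR-31 does. The first 8 bases of miR-8 also stood at bases 11 to 18 of bmo-miR-308-3p, outside its seed, as the capitals show.
bmo-miR-308-3p: aaucacaggaUAAUACUGcga

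The precursors were compared because the table lists bantam and miR-31 with 2 entries each and miR-8 with 1. The deposited table gives both bantam entries the same precursor ID, and likewise both miR-31 entries, although with different coordinates. The supplementary sequence lists give each entry a precursor of its own, at the same coordinates as the table, and these precursors were used. Coordinates are those of ZJU_Sfru_1.0, counted from 1. In the precursors below, the mature sequence is in capitals.
Spodoptera_mature_67 (bantam): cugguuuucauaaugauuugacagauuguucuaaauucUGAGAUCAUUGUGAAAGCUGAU
Spodoptera_mature_01 (bantam): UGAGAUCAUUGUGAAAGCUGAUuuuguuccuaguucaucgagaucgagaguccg
Spodoptera_mature_69 (miR-8): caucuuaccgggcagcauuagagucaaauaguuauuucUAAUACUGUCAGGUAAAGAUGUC
Spodoptera_mature_65 and Spodoptera_mature_66 (miR-31): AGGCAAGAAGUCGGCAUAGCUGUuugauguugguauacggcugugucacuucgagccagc
The bantam precursors lie on the minus strand of NC_049726.1, Spodoptera_mature_67 at 7137302 to 7137361 and Spodoptera_mature_01 at 7137270 to 7137323. They overlap in 22 bases, 7137302 to 7137323, which are exactly the mature sequence, within 92 bases in all. The 2 bantam entries are thus 1 place in the genome, with the mature sequence at the 3′ end of one listed precursor and at the 5′ end of the other. The 2 precursors differ in predicted fold. With RNAfold, the precursor of Spodoptera_mature_67 had a minimum free energy of -21.6 kcal/mol and paired 19 of the 22 mature bases with bases outside the mature sequence. The precursor of Spodoptera_mature_01 had -8.1 kcal/mol and paired 13, and it was among the 3 entries with the weakest fold of 172. Over all entries the median was -23.5 kcal/mol, in a range of -49.1 to -6.1, and the median number of mature bases paired outside was 17.

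The miR-31 precursors are identical in sequence and lie on the plus strand of NC_049717.1, at 10945154 to 10945213 and at 12598697 to 12598756, with starts 1.65 Mb apart. They are separate places in this assembly, and the counts of the table do not tell them apart, since both entries repeat the same values. Each folded with -27.7 kcal/mol and paired 19 of 23 mature bases outside the mature sequence. miR-8 has 1 precursor, on the plus strand of NC_049718.1 at 15771813 to 15771873, with -21.4 kcal/mol and 18 mature bases paired. No other entry had a precursor within 10 kb of a member. The nearest to bantam was sfr-miR-316-5p at 5.26 Mb, the nearest to the miR-31 precursors was bmo-miR-137 at 1.31 Mb and 2.96 Mb, and the nearest to miR-8 was bmo-miR-927-5p at 10.5 Mb. The gene models around these positions were not analysed here.

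**Figure D1:**
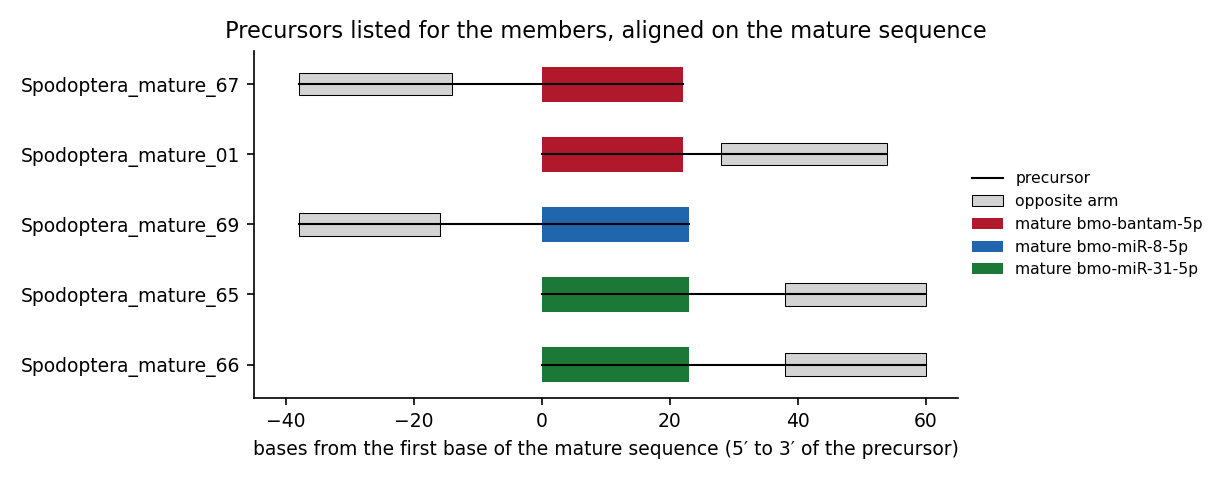
Listed precursors of the members, with position in bases from the first mature base on the horizontal axis and 1 line per entry. Colored boxes are mature sequences and grey boxes the listed opposite arms. bantam occupies the 3′ end in Spodoptera_mature_67 and the 5′ end in Spodoptera_mature_01, miR-8 the 3′ end, and miR-31 the 5′ end in both entries.

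Names and positions of the arms differed for miR-8 and bantam. miR-8 is named as a 5p strand and stands at the 3′ end of its only precursor, as does bantam in the precursor with the stronger fold. miR-31, also named 5p, stands at the 5′ end in both of its precursors. Over the whole table, 45 of the 85 entries named 5p held the mature sequence at the 3′ end, and 5 of the 10 entries named 3p held it at the 5′ end. Of 61 distinct sequences named 5p, 33 stood at the 3′ end in all of their precursors. For these entries the arm in the name is not the arm of the listed precursor.

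The members were among the most abundant miRNAs of every library. Shares are percentages of the counts of all 128 distinct sequences of a library, with identical copies counted once, and they are described without a test because the members were chosen with them known. Distinct-sequence totals were 388273 to 937481 counts in resistant libraries and 652489 to 869832 in susceptible libraries, with 123 to 127 sequences detected per library. At these depths counting error was small: in resistant replicate 3, the shallowest library, the exact (Clopper-Pearson) 95% interval of the bantam share was 13.1% to 13.3%. These intervals treat reads as independent molecules, which reads without molecular identifiers are not. They can therefore be too narrow even for counting error, and they leave out differences between larval pools.

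bantam had 131140, 48845 and 51169 counts in resistant replicates 1, 2 and 3, against 105928, 102748 and 72582 counts in susceptible replicates 1, 2 and 3. As shares these were 13.99%, 11.6% and 13.2% in resistant libraries, against 14.8%, 11.8% and 11.1% in susceptible libraries. Replicate 1 was the highest of its strain in both strains, and the ranges of the strains overlapped. The mean was 12.9% ± 1.20 in resistant libraries and 12.6% ± 1.96 in susceptible libraries (SD, n = 3 each). bantam held rank 2 or 3 in resistant libraries and rank 2 to 4 in susceptible libraries.

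miR-8 had 84124, 36594 and 31555 counts in resistant replicates 1, 2 and 3, against 66933, 66597 and 46696 counts in susceptible replicates 1, 2 and 3. Its shares were 8.97%, 8.71% and 8.13% in resistant libraries, against 9.36%, 7.66% and 7.16% in susceptible libraries. Here, too, replicate 1 was the highest of each strain, and the susceptible libraries spanned the resistant ones. The mean was 8.60% ± 0.433 in resistant libraries and 8.06% ± 1.16 in susceptible libraries (SD, n = 3 each). miR-8 held rank 5 in 5 libraries and rank 4 in resistant replicate 2.

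miR-31 had 116842, 53112 and 52436 counts in resistant replicates 1, 2 and 3, against 98240, 113706 and 94370 counts in susceptible replicates 1, 2 and 3. Its shares were 12.5%, 12.6% and 13.5% in resistant libraries, against 13.7%, 13.1% and 14.5% in susceptible libraries. The highest resistant library lay above the lowest susceptible one, so the shares overlapped. The mean was 12.9% ± 0.558 in resistant libraries and 13.8% ± 0.696 in susceptible libraries (SD, n = 3 each). miR-31 held rank 2 or 3 in every library.

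**Figure D2:**
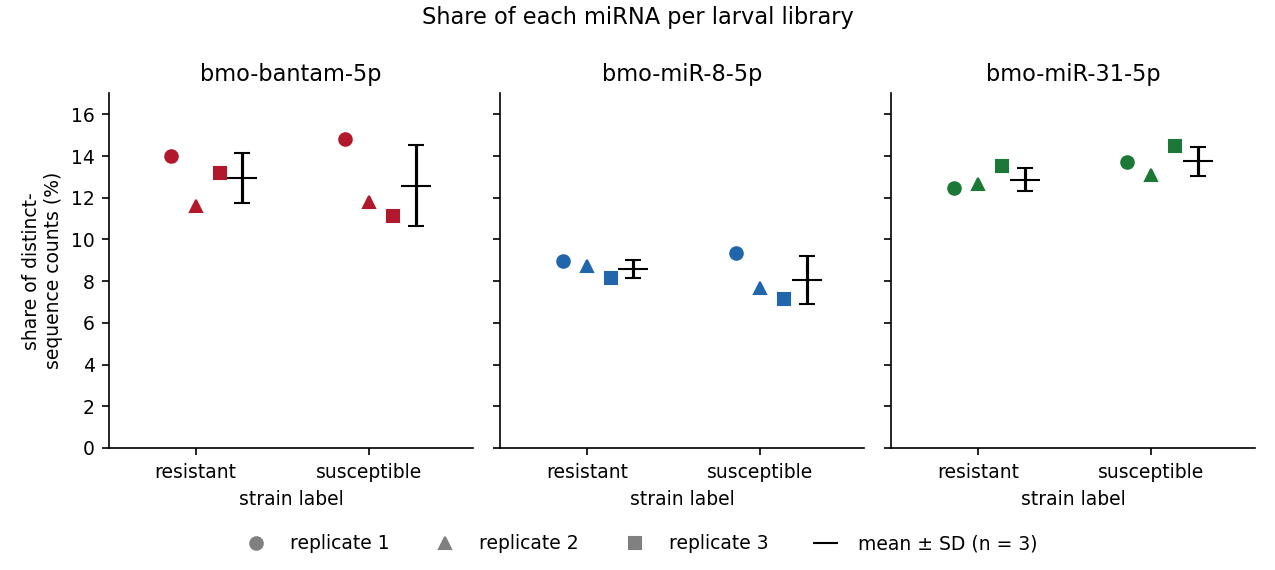
Share of distinct-sequence counts (percent, vertical axis) of each miRNA in 3 resistant and 3 susceptible libraries. Points are libraries, with 1 marker shape per replicate number, and bars are means ± SD (n = 3). The strains overlap for all 3 miRNAs, with bantam between 11.1% and 14.8%, miR-8 between 7.16% and 9.36% and miR-31 between 12.5% and 14.5%.

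In the order of mean share over the 6 libraries, pxy-miR-10-5p, a miRNA encoded in the Hox clusters of insects, was first with 17.02%. miR-31 followed with 13.3%, bantam with 12.8%, sfr-miR-281-5p with 10.1% and miR-8 with 8.33%. The next were sfr-miR-6094-5p with 6.13%, bmo-miR-184-3p with 5.09%, bmo-miR-263a-5p with 4.69%, bmo-miR-276-5p with 4.07% and sfr-miR-14-5p with 1.88%. Neighbours in this order were not all separated by library. miR-31 was above bantam in 4 of 6 libraries, bantam above miR-281 in 5 of 6, and miR-281 above miR-8 in 5 of 6. pxy-miR-10-5p was above each member, and bantam and miR-31 above miR-8, in 6 of 6 libraries.

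**Figure D3:**
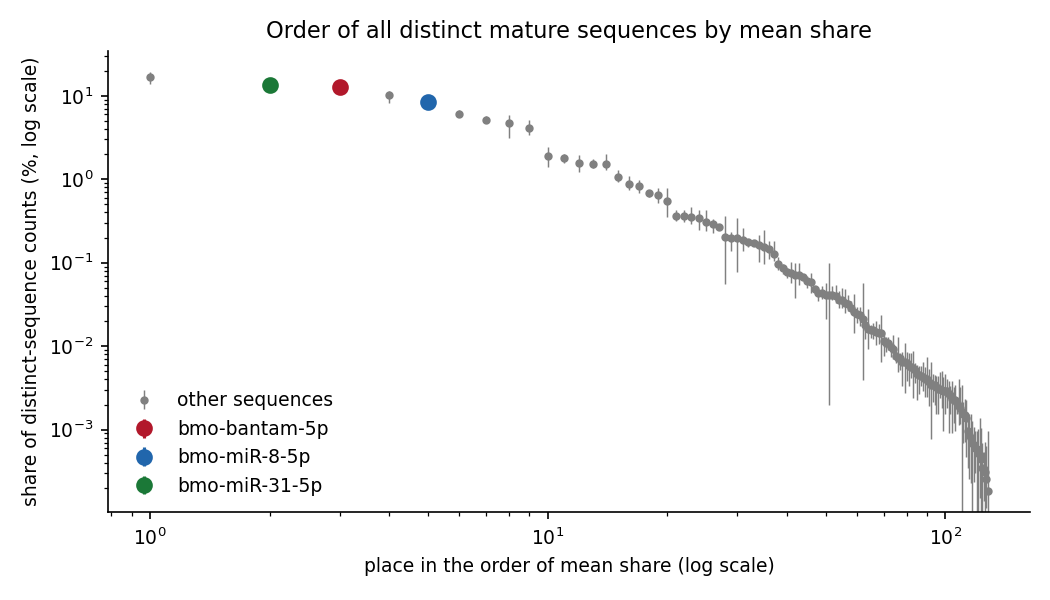
Mean share of distinct-sequence counts (percent, log scale) of all 128 sequences against their place in the order of mean share (log scale). Points are means over the 6 libraries and bars run from the lowest to the highest library, cut where the lowest is 0. miR-31, bantam and miR-8 hold places 2, 3 and 5.

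The 3 sequences together held 35.4%, 33.0% and 34.8% of the distinct-sequence counts in resistant replicates 1, 2 and 3, against 37.9%, 32.5% and 32.7% in susceptible replicates 1, 2 and 3. The mean was 34.4% ± 1.28 in resistant libraries and 34.4% ± 3.04 in susceptible libraries (SD, n = 3 each). With copies kept, their 5 entries held 43.7% ± 1.57 of the table in resistant libraries and 44.5% ± 3.16 in susceptible libraries. The authors' RPM were lower than these shares, because they refer to larger library totals than the counts of the table: bantam averaged 61516 ± 5329 RPM in resistant libraries and 61029 ± 8593 RPM in susceptible libraries, beside 129303 ± 12018 and 125831 ± 19617 CPM (counts per 1000000 distinct-sequence counts, SD, n = 3 each). The typical sequence was far less abundant: the median was 170 CPM (mean of the libraries) in resistant libraries and 158 CPM in susceptible libraries.

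Set against the study's mapped reads in place of the counts of the table, the 3 sequences made up 1.67%, 0.732% and 1.24% in resistant replicates 1, 2 and 3, against 2.63%, 1.71% and 1.74% in susceptible replicates 1, 2 and 3. On this scale the highest library labelled resistant, at 1.67%, was just below the lowest one labelled susceptible, at 1.71%. Taken singly, bantam and miR-8 overlapped. Resistant replicate 1 held 0.661% and 0.424%, above the 0.593% and 0.381% of susceptible replicate 3. miR-31 did not overlap, with at most 0.589% in resistant and at least 0.687% in susceptible libraries. How many of all sequences separate on this scale was not counted, so the separation is not read as particular to miR-31 or to the members. With mapped reads as library sizes, the log2 fold change of resistant over susceptible was -0.69 for bantam, -0.66 for miR-8 and -0.84 for miR-31, beside a median of -0.65 over all tested sequences. The cause of this shift, which the median of all tested sequences shares, was not tested. Libraries of whole larvae also do not tell fewer cells of a type from less RNA per cell.

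Ratios of the members within a library do not depend on library size or scaling. The ratio of miR-8 to bantam was 0.641, 0.749 and 0.617 in resistant replicates 1, 2 and 3, against 0.632, 0.648 and 0.643 in susceptible replicates 1, 2 and 3. Apart from resistant replicate 2, the libraries stayed between 0.617 and 0.648. The mean was 0.669 ± 0.0704 in resistant libraries and 0.641 ± 0.00837 in susceptible libraries (SD, n = 3 each).

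The ratio of miR-31 to bantam was 0.891, 1.09 and 1.02 in resistant replicates 1, 2 and 3, against 0.927, 1.11 and 1.30 in susceptible replicates 1, 2 and 3. It was below 1 in replicate 1 of each strain and above 1 in the other libraries. The ratio of miR-31 to miR-8 was 1.39, 1.45 and 1.66 in resistant replicates 1, 2 and 3, against 1.47, 1.71 and 2.02 in susceptible replicates 1, 2 and 3. The strains overlapped in all 3 ratios. Over the 6 libraries the coefficient of variation was 7.24% for miR-8 to bantam, 13.9% for miR-31 to bantam and 14.5% for miR-31 to miR-8.

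**Figure D4:**
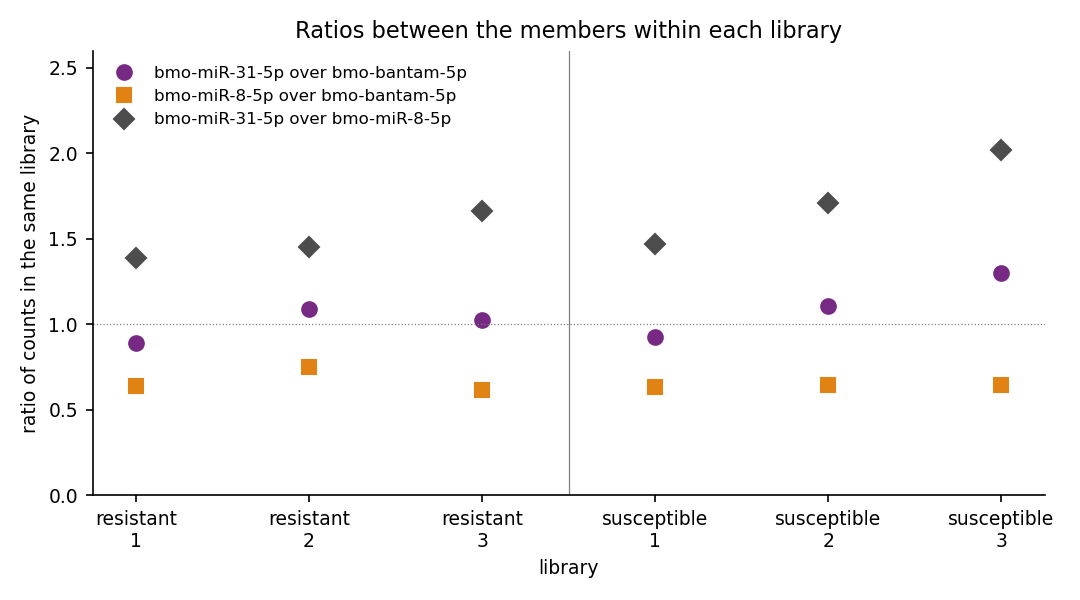
Ratios of the counts of 2 members within the same library (vertical axis), with resistant replicates 1 to 3 left of the line and susceptible replicates 1 to 3 right of it. Squares are miR-8 over bantam, circles miR-31 over bantam and diamonds miR-31 over miR-8. The squares stay between 0.617 and 0.749, and the diamonds reach 2.02 in susceptible replicate 3.

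The strain comparison asked whether the resistant larvae differed from the susceptible larvae in these miRNAs. None of the 3 members passed the test, where 37 of 112 tested sequences, or 33.0%, were called at an adjusted p under 0.05 (edgeR's quasi-likelihood test, Benjamini-Hochberg). Of the tested sequences, 26 (23.2%) were higher and 11 (9.82%) lower in the libraries labelled resistant, a direction that rests on the labels and is in doubt. This split was 14 higher and 11 lower with DESeq2, 11 and 24 with upper-quartile factors and 3 and 29 with mapped reads, and the calls numbered 21 without susceptible replicate 2 and 24 without susceptible replicate 1. bantam averaged 128501 ± 12884 CPM in resistant libraries and 127453 ± 26598 CPM in susceptible libraries after TMM scaling, edgeR's adjustment for library composition (SD, n = 3 each). Its log2 fold change, resistant over susceptible, was 0.01 with a standard error of 0.14 and an edgeR adjusted p of 0.950. The 95% interval of -0.29 to 0.31 corresponds to a ratio of 0.818 to 1.24.

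miR-8 averaged 85717 ± 8896 CPM in resistant libraries and 81584 ± 15999 CPM in susceptible libraries (TMM-scaled, SD, n = 3 each). Its log2 fold change was 0.07 with a standard error of 0.14 (edgeR adjusted p = 0.710), and the 95% interval of -0.23 to 0.37 corresponds to a ratio of 0.855 to 1.29. With TMM scaling, a 1.5-fold difference lies outside the intervals of bantam and miR-8. With mapped reads as library sizes it does not, since the estimates there were -0.69 for bantam and -0.66 for miR-8, with standard errors of 0.42 and 0.41. The sign of these 2 estimates depended on the scaling, being above 0 with TMM and below 0 with DESeq2 or upper-quartile factors.

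miR-31 had 127671, 130199 and 125502 TMM-scaled CPM in resistant replicates 1, 2 and 3, against 146057, 130584 and 138955 CPM in susceptible replicates 1, 2 and 3. The strains did not overlap on this scale, although resistant replicate 2 and susceptible replicate 2 nearly met. Groups that do not overlap were seen in 58 of the 112 tested sequences (51.8%), and in 25 (22.3%) with the resistant libraries lower, so this separation was common in the table. The log2 fold change was -0.12 with a standard error of 0.08 (edgeR adjusted p = 0.295), and the 95% interval of -0.30 to 0.06 corresponds to a ratio of 0.814 to 1.04.

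**Figure D5:**
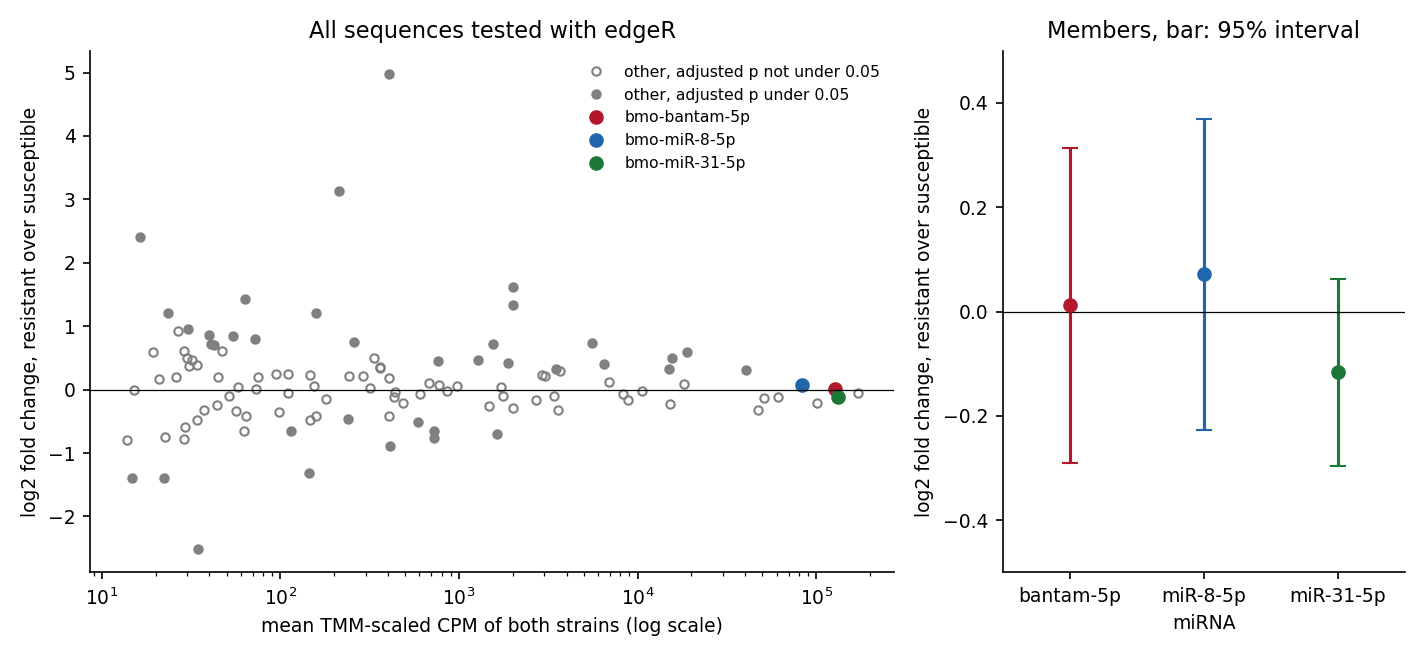
Left, log2 fold change of resistant over susceptible libraries for 112 tested sequences against mean TMM-scaled CPM (log scale), with filled grey points at an edgeR adjusted p under 0.05. Right, the members with 95% intervals, which all include 0: bantam at 0.01, miR-8 at 0.07 and miR-31 at -0.12.

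After TMM scaling, miR-31 varied less between replicates than the other members. Its SD of TMM-scaled log2 CPM within strains was 0.06, the third smallest of 112 tested sequences, after sfr-miR-6094-5p and bmo-miR-184-3p. The SD was 0.23 for bantam and 0.22 for miR-8, close to the median of 0.24 over the tested sequences. In unscaled shares, the coefficient of variation was 4.33% for miR-31, 5.03% for miR-8 and 9.29% for bantam in resistant libraries. In susceptible libraries it was 5.06%, 14.3% and 15.6% in the same order. The effect of the scaling on the rank of the SD was not tested. Highly counted sequences carry less counting error than rare ones. bantam and miR-31 had similar mean shares, 12.8% and 13.3%, and unlike SDs, and pxy-miR-10-5p, the most abundant sequence, had an SD of 0.27. No test of this order was made, and its cause was not tested.

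After TMM scaling, bantam and miR-8 followed each other across the libraries, and miR-31 did not follow them closely. Over the 6 libraries, Pearson's r of log2 CPM was 0.88 between bantam and miR-8, 0.30 between bantam and miR-31 and 0.24 between miR-8 and miR-31. These are descriptions over 6 libraries that share their scaling. Correlations of unscaled shares were not calculated, and the sign of the weak ones can depend on the scaling. The sequences named next were picked for the highest r among all tested sequences, a choice that favours high values. The tested sequence most like bantam was Spodoptera_mature_03, a predicted miRNA (r = 0.91), followed by bmo-miR-317-5p (r = 0.88). Spodoptera_mature_03 was also the most like miR-8 (r = 0.96), followed by bantam. The sequences most like miR-31 were Spodoptera_mature_12 and bmo-miR-184-3p (r = 0.85 each), of which bmo-miR-184-3p was also among the 10 most abundant.

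Other miRNAs of insulin signalling and growth, by the roles of their relatives in Drosophila, were compared with the members. This list and the next were chosen with earlier results of these data known. Their counts therefore describe these libraries and cannot test whether such miRNAs change together. Of 7 listed, 6 were tested, and with TMM scaling 4 rose in the libraries labelled resistant, 0 fell and 2 did not pass, against 23.2% higher and 9.82% lower among all tested sequences. With the strains exchanged, these rises would be falls. The list counted 3 higher and 1 lower with DESeq2, and 0 higher and 2 lower with upper-quartile factors or with library sizes set to mapped reads. Without resistant replicate 3, susceptible replicate 2 or susceptible replicate 3, 2 were higher, and 1 was lower without resistant replicate 2 or susceptible replicate 3. sfr-miR-14-5p, whose relative in Drosophila limits fat storage and cell death, had 21904, 24992 and 20907 CPM in resistant replicates 1, 2 and 3, against 15026, 15989 and 13999 CPM in susceptible replicates 1, 2 and 3. Every library labelled resistant was higher, with a log2 fold change of 0.59 (standard error 0.10, edgeR adjusted p = 0.00175). Strains that do not overlap, in either direction, were seen in 51.8% of all tested sequences. bmo-miR-9a-5p rose by 0.51 on the log2 scale, bmo-miR-305-5p by 0.46 and bmo-let-7-5p, a miRNA of developmental timing, by 0.41 (edgeR adjusted p = 0.00335, 0.0232 and 0.0487). bmo-miR-278-5p had a log2 fold change of -0.23 and bmo-miR-252-5p of -0.32 (edgeR adjusted p = 0.111 and 0.0622). bmo-miR-33-5p, with 2 to 5 counts per library, did not pass the filter on low counts. The median of the 6 was 0.44, beside 0.05 over all tested sequences.

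The second list held relatives of the Drosophila miRNAs that repress cell death genes, as bantam represses hid. All 7 were tested, and with TMM scaling 2 rose in the libraries labelled resistant, 0 fell and 5 did not pass. Among all tested sequences 23.2% were higher and 9.82% lower, so the list was near this background, and its direction also rests on the labels. There was 1 higher under DESeq2 or upper-quartile factors and 0 under mapped reads. Leaving out susceptible replicate 2 gave 0 calls in this list, and leaving out any other library gave 1 higher. bmo-miR-308-3p, the miRNA printed above, had 305, 275 and 390 CPM in resistant replicates 1, 2 and 3, against 223, 145 and 209 CPM in susceptible replicates 1, 2 and 3. Every library labelled resistant was higher, with a log2 fold change of 0.75 (standard error 0.21, edgeR adjusted p = 0.0201). The strains also did not overlap, in either direction, in 51.8% of all tested sequences. bmo-miR-13a-5p rose by 0.70 on the log2 scale (edgeR adjusted p = 0.0416) at a mean of 53.1 CPM in resistant libraries and 32.3 CPM in susceptible libraries. sfr-miR-2a-5p, sfr-miR-2b-5p, sfr-miR-2c-5p, sfr-miR-11-5p and sfr-miR-13b-5p had log2 fold changes between -0.07 and 0.22, none of which passed. The median of the list was 0.08, beside 0.05 over all tested sequences.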

How the data were processed

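Small RNA of 6 larval pools was sequenced as reads of 50 bp. After trimming with cutadapt, the authors kept reads of 18 nt or more, used ZJU_Sfru_1.0 as the genome for mapping and assigned reads to mature miRNAs by miRDeep2. The authors deposited raw counts, RPM (reads scaled to 1000000) and a signal headed as normalized with DESeq2. The authors' RPM and signal served as alternatives only. Sequences and precursor positions came from the study's supplementary sequence lists, and starts were changed to count from 1. Members and lists were chosen with earlier results of these data known. Named miRNAs were the members, the 10 most abundant sequences, sequences with a member's seed or within 3 edits, the 2 most correlated per member, entries within 10 kb and the 2 lists.

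The strain test used edgeR 4.0.16 in R 4.3.3 on the counts of each distinct sequence after TMM scaling (filterByExpr, glmQLFit, glmQLFTest, strain as the only term), with Benjamini-Hochberg adjustment over 112 sequences. The other 16 failed the filter on low counts. Intervals at 95% used the t distribution with edgeR's total degrees of freedom, 11.0 for each member. These include information on spread borrowed from the other tested sequences. Standard errors were the size of the log2 fold change divided by the square root of the F statistic of the test. Correlations used TMM-scaled log2 CPM with a prior count of 2. Folds were predicted with RNAfold 2.7.2. The procedure was run on simulated counts with the same dispersion for every sequence and with larger changes than those of the members. It did not test differences as small as theirs. Alternatives were copies kept, DESeq2 1.42.0, upper-quartile factors, all factors at 1, mapped reads as library sizes, no filter, a replicate block, limma 3.58.1 on log2 of the RPM or the signal with a pseudocount of 1, and leaving out each library. Replicates of a strain differed by more than sampling noise. The study calls them biological replicates, each a pool of larvae.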

Additional observations from a re-analysis of the deposited data

How the results depend on the processing

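None of the 3 members was called in the main test or in any of 15 alternatives each, with adjusted p of 0.172 to 0.981 for bantam, 0.181 to 0.998 for miR-8 and 0.0649 to 0.490 for miR-31. The log2 fold change of miR-31 was below 0 in all 15, from -0.84 with mapped reads to -0.10 with factors of 1. bantam, at 0.01 with TMM, was -0.00685 with copies kept, -0.0581 with DESeq2, -0.20 with upper-quartile factors, -0.69 with mapped reads, -0.0453 with no filter and -0.0142 with the authors' signal. miR-8, at 0.07 with TMM, was -0.00195 with DESeq2, -0.15 with upper-quartile factors and -0.66 with mapped reads. The median of all tested sequences was 0.05 with TMM, -0.18 with upper-quartile factors and -0.65 with mapped reads. Relative to that median, bantam was at -0.04 with TMM, -0.02 with upper-quartile factors and -0.04 with mapped reads, miR-8 at 0.02, 0.03 and -0.01, and miR-31 at -0.17, -0.17 and -0.19. Leaving out 1 library gave -0.13 to 0.17 for bantam, -0.07 to 0.21 for miR-8 and -0.18 to -0.10 for miR-31. bantam was below 0 without resistant replicate 1 (-0.09), susceptible replicate 2 (-0.06) or susceptible replicate 3 (-0.13), and miR-8 without susceptible replicate 3 (-0.0695).

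The 37 calls, 26 higher and 11 lower in resistant libraries, became 21 to 29 when 1 library was left out, with 21 without susceptible replicate 2 and 24 without susceptible replicate 1. The split was 24 higher and 16 lower with copies, 14 and 11 with DESeq2, 11 and 24 with upper-quartile factors, 3 and 29 with mapped reads, 17 and 15 with no filter, and 15 and 14 with the authors' signal. The cause was not tested. Samples share only a replicate number across strains. The correlations of same-numbered deviations were 0.04, 0.29 and 0.27, and not every library correlated best with its own number. A replicate block gave 37 calls, 23 higher and 14 lower, and log2 fold changes of 0.03 for bantam, 0.08 for miR-8 and -0.12 for miR-31.

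With copies kept, the shares became 18.8% in resistant and 18.4% in susceptible libraries for bantam, 6.25% and 5.91% for miR-8, and 18.7% and 20.2% for miR-31, since copies repeat counts. The authors' RPM and signal divide the counts of each library by a single value. Taken as shares of their own sum over the distinct sequences, or as ratios, they equal the counts by construction, apart from rounding. They are therefore no check on the shares and ratios. Leaving out 1 library gave bantam 12.4% to 13.6% in resistant and 11.5% to 13.3% in susceptible libraries, miR-8 8.42% to 8.84% and 7.41% to 8.51%, and miR-31 12.6% to 13.1% and 13.4% to 14.1%. The intervals rest on 3 libraries per strain and on spread partly borrowed from the other tested sequences. The effect of read depth on them was not tested.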

Other observations

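The overlap of the bantam precursors was not particular to bantam in the table. Of 41 sequences listed for more than 1 precursor, 7 had precursors that overlap on a strand, and 27 had identical precursor sequences, as miR-31 has. In 40 of the 41 every precursor lay on the same chromosome or scaffold. The remaining 87 sequences, miR-8 among them, had 1 precursor. Over all 172 entries, 80 held the mature sequence at the 5′ end of the precursor and 92 at the 3′ end.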
